A study of Homo sapiens with 2 samples.

Results

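Hyaluronan is a long sugar polymer of the extracellular matrix that cells extrude through synthases in the plasma membrane, cut with hyaluronidases and related proteins, and bind through surface receptors. A set of 7 genes of this pathway was followed in cells of the human fibrosarcoma line HT1080, chosen by symbol: the synthases HAS2 and HAS3, the depolymerization genes CEMIP and CEMIP2, the hyaluronidase genes HYAL2 and HYAL3, and the receptor gene CD44. They are 7 of the 36601 genes listed in the files, and each symbol matched 1 gene ID. HAS2 is known for making long chains, and CD44 is the main hyaluronan receptor of mesenchymal cells, where it also links the membrane to actin. In tumour and stromal cells the balance of synthesis and cutting sets how much polymer surrounds the cell and in which size.

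The cultures compared gave 1 library each of single-cell RNA from HT1080 spheroids after 72 h of invasion in three-dimensional collagen gels. The 4B4 culture received 2 µg/ml of 4B4, an antibody that blocks β1 integrin, and the label of the control culture names no antibody or other agent. Both held about 50 spheroids of 2000 cells each in 500 µl of collagen, and the cells were freed by collagenase, followed by trypsin. HT1080 is an established tumour line, and its genotype is described as wild type in both groups. How many cells of how many spheroids entered each library is not given in the sources used here. With 1 library per group, library and antibody cannot be told apart, and no test or p-value was computed.

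Counts of unique molecular identifiers (UMIs) were compared over 1385 4B4 cells and 3402 control cells, with 116451080 UMIs and 127218114 UMIs. The median cell held 68556 UMIs in the 4B4 library and 32914 in the control library, a ratio of 2.08, and the libraries shared 2 barcodes. Levels are UMIs summed over a library's cells per 1000000 of its UMIs (UPM). The 95% intervals given are exact for counting error alone and leave out any variation between cultures. The cell type label was checked against markers: all 5 mesenchymal genes passed 5 UPM, VIM at 1392 UPM in 4B4 cells and 1830 UPM in control cells. The 5 leukocyte markers summed to 3.31 and 2.59 UPM and the 3 erythroid markers to 0.0859 and 0.102 UPM. Of the epithelial markers only CLDN4 reached 5 UPM (13.8 in 4B4 cells and 11.2 in control cells), with KRT5 at 0, and of the endothelial markers only PECAM1 did (45.8 and 30.3), with CLDN5 at 0 UMIs in 4B4 cells and 2 in control cells.

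CEMIP was the only member of the 6 measured that was called different between the cultures. Its product binds hyaluronan and takes part in its breakdown outside the lysosome. CEMIP stood at 51.4 UPM (50.1 to 52.7) in the 4B4 library and 21.1 UPM (20.3 to 21.9) in the control library, from 5982 and 2684 UMIs. The ratio of 2.43 (2.33 to 2.55) is 1.28 on the log2 scale. The comparison covered genes that reached 5 UPM in the 4B4 library, the control library or both, and a call needed a 1.5-fold difference with a counting interval on the same side of 1. By that rule 2.1% of the 11359 genes compared were higher in the 4B4 library and 5.82% were lower, 7.91% in all. Among the 6 members past the floor of 5 UPM, CEMIP was higher and none was lower. Of all 11359 genes, 15 had a larger ratio than CEMIP.

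**Figure D1:**
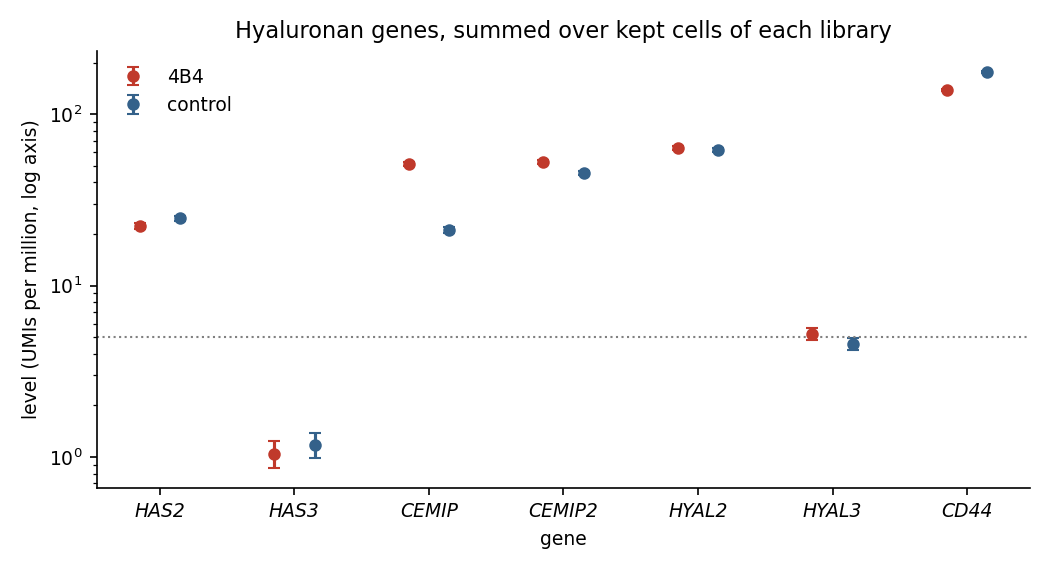
Level of each gene (UMIs per 1000000, log axis) in the 4B4 library and the control library, with exact 95% counting intervals; the dotted line is the floor of 5 UPM. CEMIP stands at 51.4 UPM in 4B4 cells and 21.1 UPM in control cells, while HAS3 lies below the floor in both libraries.

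Neither synthase was called. HAS2 was at 22.2 UPM (21.4 to 23.1) in the 4B4 library and 24.8 UPM (23.9 to 25.6) in the control library, a log2 ratio of -0.16. HAS3, which is known for making shorter chains, had 121 UMIs in the 4B4 library and 149 in the control library. These are 1.04 UPM (0.862 to 1.24) and 1.17 UPM (0.991 to 1.38), below the floor of 5 UPM, and the interval of their ratio, 0.692 to 1.14, spanned 1 and lay within 1.5-fold. The third synthase gene, HAS1, had 2 UMIs in each library. HAS2-AS1, which is read from the opposite strand over HAS2, was at 2.51 UPM in 4B4 cells and 2.71 UPM in control cells.

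CEMIP2, the membrane-bound relative of CEMIP that has been reported as a cell-surface hyaluronidase, was at 52.9 UPM (51.6 to 54.2) in the 4B4 library and 45.4 UPM (44.2 to 46.5) in the control library. Its log2 ratio of 0.22 was short of 1.5-fold, and 0.055 over cells called G1. HYAL2, a hyaluronidase anchored at the cell surface, was at 63.4 UPM (61.95 to 64.9) and 61.8 UPM (60.4 to 63.2), and its interval for the ratio (0.993 to 1.06) spanned 1. HYAL3, a relative of HYAL2, was at 5.24 UPM (4.83 to 5.67) in the 4B4 library and 4.57 UPM (4.21 to 4.96) in the control library, and so passed the floor through the 4B4 library alone. CD44 was at 138.6 UPM (136.4 to 140.7) in 4B4 cells and 177 UPM (175 to 179.8) in control cells. Its log2 ratio of -0.36 was below 0 under all 10 other settings, from -0.53 to -0.11, and short of 1.5-fold in each.

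Counted per cell rather than per 1000000 UMIs, every member was higher in 4B4 cells, whose UMI totals were larger. A mean 4B4 cell held 11.7 CD44 UMIs and a mean control cell 6.64, a ratio of 1.76, while the ratio of UPM was 0.781. CEMIP had 4.32 UMIs per 4B4 cell and 0.789 per control cell, a ratio of 5.47. HAS2 had 1.87 and 0.926 UMIs per cell. The direction of CD44, HAS2 and HAS3 thus differed between the scales. The part of the difference in UMI totals in these values was not tested.

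The regions just before the transcription start of CEMIP and its relative CEMIP2 are shown as those of a related pair in which one gene was called and the other was not. Each is the 250 bases upstream of the RefSeq start on the GRCh38.p14 build, 5′ to 3′ on the gene's strand, chr15:80779120-80779369 on the plus strand for CEMIP and chr9:71768514-71768763 on the minus strand for CEMIP2. Capitals mark the GC box GGGCGG and the TATA motif TATAAA on either strand.
CEMIP: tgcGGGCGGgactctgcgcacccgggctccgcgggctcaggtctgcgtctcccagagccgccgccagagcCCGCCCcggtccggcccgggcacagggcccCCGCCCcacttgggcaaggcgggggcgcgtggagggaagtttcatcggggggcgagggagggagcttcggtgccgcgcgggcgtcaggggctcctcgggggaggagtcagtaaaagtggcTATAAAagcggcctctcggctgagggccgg
CEMIP2: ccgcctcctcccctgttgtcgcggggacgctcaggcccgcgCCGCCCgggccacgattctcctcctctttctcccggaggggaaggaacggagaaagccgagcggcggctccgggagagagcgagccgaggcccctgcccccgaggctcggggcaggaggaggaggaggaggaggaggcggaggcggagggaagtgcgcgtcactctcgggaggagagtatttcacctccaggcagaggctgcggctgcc
The CEMIP stretch holds 3 GC boxes and a TATA motif that begins 30 bases before the start, and is 74.4% G and C. The CEMIP2 stretch holds 1 GC box and no TATA motif, and is 71.6% G and C. Over 35114 stretches of the same length in the RefSeq table, 42.6% held the GC box and 10.7% the TATA motif. Neither stretch held GGAATG, a motif bound by TEAD factors (11.9% of stretches), TGANTCA, bound by AP-1 (6.57%), or TGACNNNGC, bound by NRF2 (10.9%), on either strand. The last of these motifs can overlap AP-1 motifs. These counts describe letters in these windows alone, and the CEMIP2 window lies within the GENCODE span of the gene given next, which begins further upstream. The GENCODE start of CEMIP, 80779343, falls inside the TATA motif, so the bases of its window from there on lie within the gene by that annotation.

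With positions from GENCODE release 29 on GRCh38, CEMIP (ENSG00000103888) lies on chromosome 15 from 80779343 to 80951776, CEMIP2 (ENSG00000135048) on chromosome 9 from 71683366 to 71816690 and CD44 (ENSG00000026508) on chromosome 11 from 35138870 to 35232402. HYAL2 (ENSG00000068001) and HYAL3 (ENSG00000186792) are neighbours on chromosome 3, from 50317790 to 50322906 and from 50292831 to 50299468. HAS3 (ENSG00000103044) lies on chromosome 16 from 69105564 to 69118719, and HAS2 (ENSG00000170961) on chromosome 8. Counts are per gene, so no exon or intron is attached to them. HYAL3 shares its span and strand with NAA80 and IFRD2, and HYAL2 with TUSC2, so reads could be split between them and these levels are uncertain in that respect. CEMIP overlaps MESD, a gene on the opposite strand that stood at 50.0 UPM in 4B4 cells and 62.7 UPM in control cells, the other direction from CEMIP. HAS3 overlaps CHTF8 on the opposite strand, at 1.95 UPM in 4B4 cells and 1.12 UPM in control cells. CD44-AS1, opposite CD44, was at 0.352 and 0.597 UPM. The sources used here do not give whether strand entered the counting, so whether reads of opposite strands were kept apart is not known here.

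The share of cells with CEMIP and the amount in those cells were both higher in the 4B4 library. To compare shares at equal depth each cell was thinned to 17000 UMIs, which left 1311 4B4 cells and 3099 control cells. A CEMIP UMI was then found in 31.0% of 4B4 cells (28.5% to 33.6%) and 15.5% of control cells (14.2% to 16.8%). Cells with a CEMIP UMI held a mean of 3.09 in the 4B4 library and 2.27 in the control library. Counts of 5 or more CEMIP UMIs were found in 58 4B4 cells, 4.42%, and in 46 control cells, 1.48%. Without thinning, the shares were 55.3% and 23.9%. Free RNA in the droplets also gives UMIs, and with 1 cell line in culture there was no cell type without the gene against which to set these shares.

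The other members differed less in their shares at equal depth. HAS2 was found in 20.4% of 4B4 cells (18.2% to 22.6%) and 25.8% of control cells (24.2% to 27.3%), while the unthinned shares ran the other way, 40.6% and 37.0%. CD44 was found in 77.5% of 4B4 cells (75.1% to 79.7%) and 80.9% of control cells (79.5% to 82.3%). CD44 at 5 or more UMIs was found in 15.2% of 4B4 cells and 21.6% of control cells. CEMIP2 was found in 49.9% (47.1% to 52.6%) of 4B4 cells and 45.2% (43.4% to 46.9%) of control cells, and HYAL2 in 60.3% (57.6% to 62.9%) and 62.4% (60.7% to 64.1%). The HYAL3 shares were 8.09% and 7.84% and the HAS3 shares 1.68% and 1.84%, with overlapping intervals for both genes. Without thinning, CD44 was found in 94.0% of 4B4 cells and 87.6% of control cells, CEMIP2 in 81.2% and 64.6%, HYAL2 in 88.9% and 81.0%, HYAL3 in 30.4% and 14.99% and HAS3 in 7.44% and 3.94%.

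**Figure D2:**
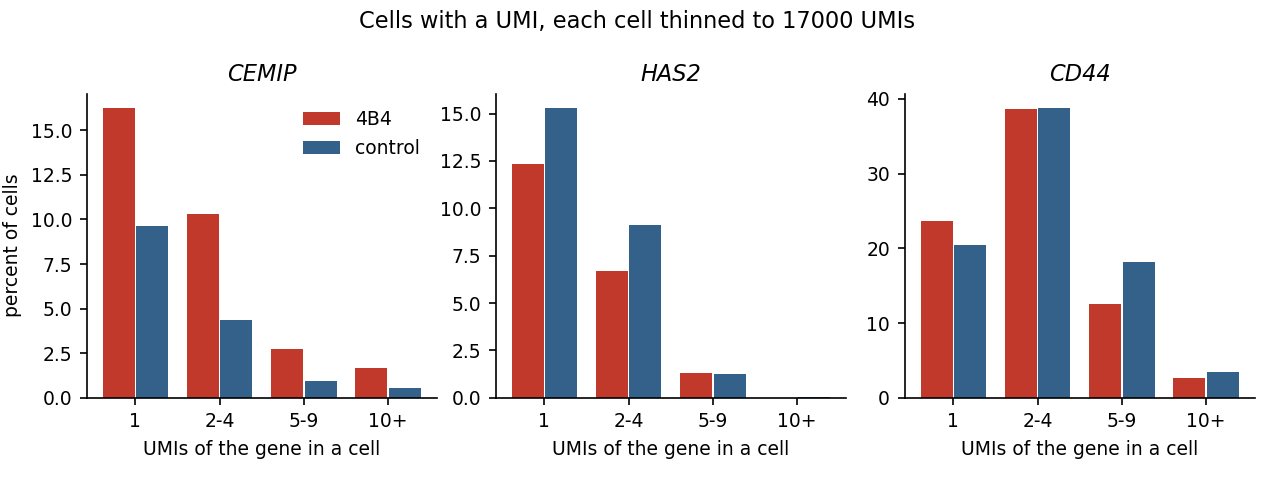
Percent of cells with 1, 2 to 4, 5 to 9 and 10 or more UMIs of CEMIP, HAS2 and CD44 after thinning each cell to 17000 UMIs, in 4B4 cells and control cells; bars start at 0. CEMIP bars are taller for 4B4 cells in every class, with 1.68% of 4B4 cells and 0.549% of control cells at 10 or more UMIs.

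CEMIP was concentrated in few cells of either culture. Without thinning, the cells richest in CEMIP that together held 50% of its UMIs were 48 of 1385 4B4 cells (3.47%) and 83 of 3402 control cells (2.44%). The highest cell held 209 CEMIP UMIs in the 4B4 library and 62 in the control library. Without the 1% of cells holding the most CEMIP in each library its levels were 37.5 UPM in 4B4 cells and 14.5 UPM in control cells, a log2 ratio of 1.37. With HAS3 and HYAL3 set aside, HAS2 came next, with 50% of its UMIs in 5.78% of 4B4 cells and 7.61% of control cells. The corresponding shares were 17.0% and 15.9% for CD44, 15.6% and 14.3% for CEMIP2 and 19.6% and 20.8% for HYAL2. HAS3 and HYAL3 had too few UMIs per cell for such a share to describe their spread. CEMIP and HAS2 were also sparse in control cells, at 0.789 and 0.926 UMIs per cell. The part of UMIs per cell in these shares was not tested.

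Levels were then read by cell cycle phase. Phases were called from 43 S genes and 53 G2M genes over the thinned cells: 1140, 82 and 89 4B4 cells and 2032, 426 and 641 control cells were called G1, S and G2M. The G1 call is left for cells that scored for neither S nor G2M, so cells outside the cycle fall in it too. CEMIP was highest in cells called G1 in both libraries. In the 4B4 library it stood at 53.4 UPM in G1, 35.5 in S and 42.5 in G2M, and in the control library at 24.8, 13.7 and 17.1 UPM. CEMIP was higher in the 4B4 library within each phase, with log2 ratios of 1.10 (1.03 to 1.18) in G1, 1.38 (1.11 to 1.64) in S and 1.31 (1.13 to 1.498) in G2M. Among genes of at least 5 UPM, 1.57% were called higher in G1 cells of the 4B4 library and 3.45% lower, 5.02% in all.

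CD44 had the opposite order, lowest in G1 in both libraries. It stood at 130.7 UPM in G1, 177 in S and 188 in G2M of the 4B4 library and at 154, 214 and 218 UPM in the control library. Within phases the CD44 log2 ratio was -0.24 in G1, -0.27 in S and -0.22 in G2M, each closer to 0 than the -0.36 over all cells. HAS2 was highest in S in both libraries, at 26.1 UPM (22.2 to 30.4) in 4B4 cells and 28.7 (26.3 to 31.4) in control cells. Its S over G1 log2 ratio was 0.24 (0.0052 to 0.47) in the 4B4 library and 0.21 (0.069 to 0.36) in the control library. The separate HAS2 intervals of S and G1 overlapped in the 4B4 library. HAS3 was at 2.49 UPM (1.81 to 3.35) in control S cells against 0.869 (0.669 to 1.11) in control G1 cells, from 44 and 64 UMIs. The same values in 4B4 cells, 1.59 (0.763 to 2.93) and 0.916 (0.737 to 1.12), had overlapping intervals.

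CEMIP2 levels lay further apart between the cultures in cells called S and G2M than in G1 cells, a difference that was not tested. Its log2 ratio, 4B4 over control, was 0.055 (-0.0063 to 0.12) in G1, 0.77 (0.58 to 0.95) in S and 0.47 (0.33 to 0.62) in G2M. In the 4B4 library CEMIP2 stood at 51.8 UPM in G1, 61.2 in S and 55.1 in G2M. In the control library it stood at 49.8, 36.0 and 39.6 UPM. The S value of the 4B4 library rests on 82 cells and 385 UMIs. HYAL2 had ratios within 0.21 of 0 on the log2 scale in every phase.

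**Figure D3:**
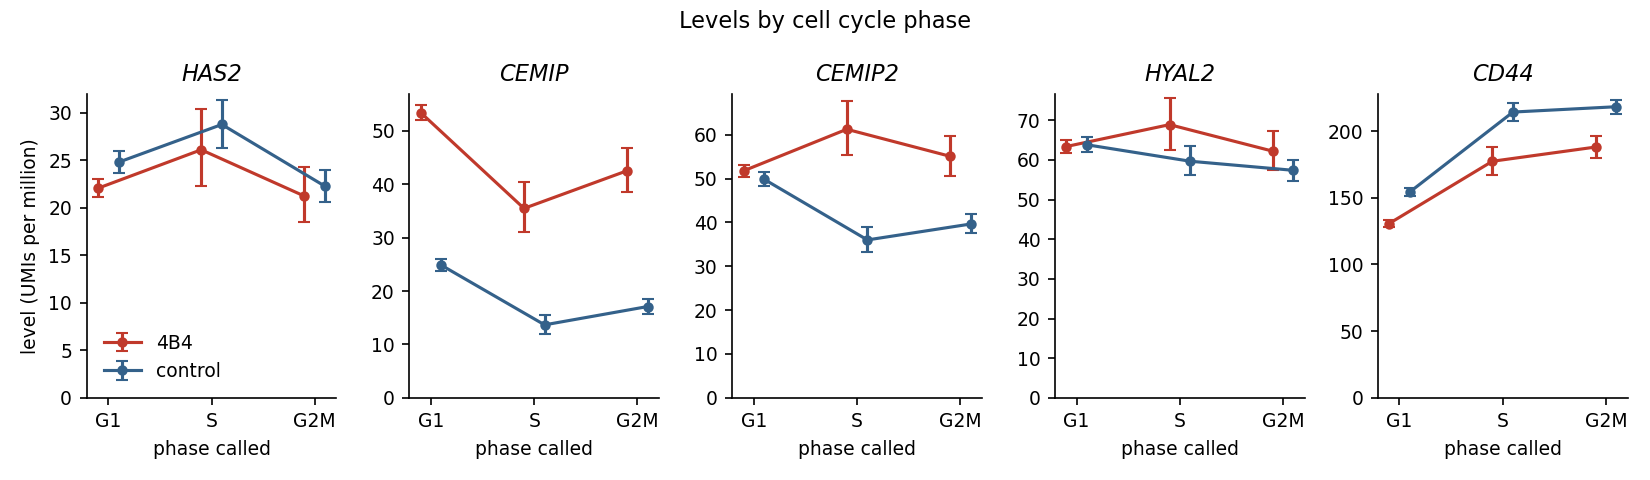
Level (UMIs per 1000000) of HAS2, CEMIP, CEMIP2, HYAL2 and CD44 in cells called G1, S and G2M of the 4B4 library and the control library, with exact 95% counting intervals. CEMIP lies higher in 4B4 cells in all 3 phases, CD44 is lowest in G1 in both libraries, and the CEMIP2 intervals of the libraries overlap in G1 and not in S or G2M.

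Clusters of each library gave a finer view. They were found without the 7 members among the clustering genes and are called by number. The 4B4 library had 6 clusters and the control library 4. MALAT1, an RNA retained in the nucleus, ranged over them from 1437 UPM in 4B4 cluster 2 to 70195 UPM in 4B4 cluster 6, a group of 30 cells with a median of 14.6% mitochondrial UMIs. Most cells called S or G2M were in 4B4 cluster 5 and control cluster 3, whose leading genes included MKI67 and DLGAP5. A cluster's levels are a description and no test was made between clusters.

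CEMIP2 was high where MALAT1 was high. In the control library it stood at 68.9 UPM in cluster 1, which had the most MALAT1 (24870 UPM), and at 25.5 UPM in cluster 2, which had the least (3703 UPM). Among 4B4 clusters of at least 50 cells CEMIP2 was highest in cluster 3 at 89.9 UPM, which had the most MALAT1 of these (30365 UPM), and lowest in cluster 4 at 21.3 UPM (MALAT1 1649 UPM). Cluster 6 of the 4B4 library reached 173 UPM. The order of the control clusters by CEMIP2 was their order by MALAT1, and that of the 4B4 clusters too but for clusters 2 and 4, which had the least MALAT1 (1437 and 1649 UPM). HYAL2 was highest in the clusters with little MALAT1, at 81.2 UPM in 4B4 cluster 4 and 80.7 UPM in control cluster 2. Its lowest levels were 12.2 UPM in 4B4 cluster 6 and 49.9 UPM in control cluster 4. The part of nuclear RNA content in these levels was not tested.

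CEMIP was lowest in the same low-MALAT1 clusters, at 20.1 UPM in 4B4 cluster 4 and 13.6 UPM in control cluster 2. Its highest values were 84.8 UPM in 4B4 cluster 3 and 33.8 UPM in control cluster 1. Of the 58 4B4 cells with 5 or more CEMIP UMIs at equal depth, 26 were in cluster 3 and 20 in cluster 1. Of the 46 such control cells, 28 were in cluster 1. In 4B4 clusters 1, 3 and 5 CEMIP was above its highest control cluster. It was at 38.9 UPM (28.7 to 51.6) in the 30 cells of 4B4 cluster 6, an interval that held the 33.8 UPM of control cluster 1. Among clusters of at least 50 cells, HAS2 was highest in 4B4 cluster 1, at 38.4 UPM, and in control cluster 1, at 35.5 UPM. Among genes of at least 50 UPM in 4B4 cluster 1, mitochondrial genes left out, CEMIP had the largest ratio to the other clusters (73.9 against 44.2 UPM). ITGA10 came next, and SOX4 was also among the 10 leading genes there. HAS2, at 38.4 UPM, was below that floor and was not ranked. CD44 was highest in control cluster 4 at 273 UPM, whose leading genes ANKRD1 and TENM2 are a YAP target and an adhesion gene, and lowest in 4B4 cluster 4 at 66.5 UPM, led by S100A9.

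**Figure D4:**
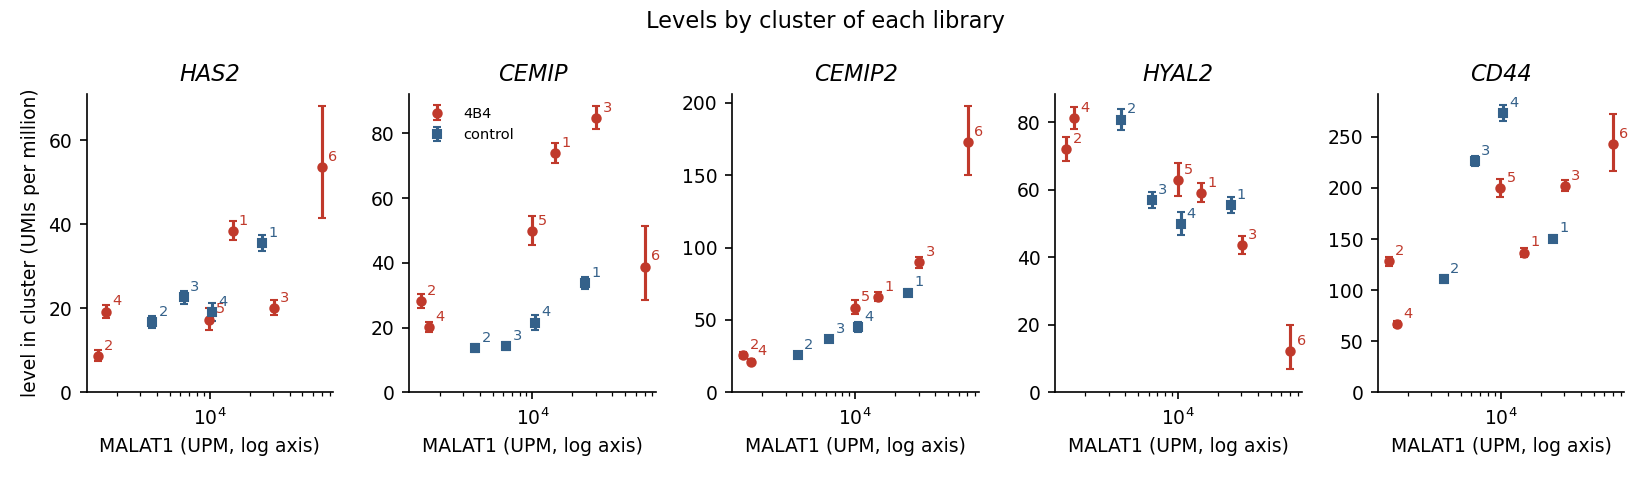
Level (UMIs per 1000000) of HAS2, CEMIP, CEMIP2, HYAL2 and CD44 in each cluster of the 4B4 library (circles) and the control library (squares), plotted against the MALAT1 level of that cluster (log axis), with exact 95% counting intervals and cluster numbers. CEMIP2 is higher in clusters with more MALAT1, from 25.5 to 68.9 UPM over the control clusters, and HYAL2 is lowest, at 12.2 UPM, in the 4B4 cluster with the most.

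Cell depth moved with some of these levels. CD44 stood at 208 UPM in the 84 4B4 cells under 20000 UMIs and at 111 UPM in the 533 such control cells, against 138 and 206 UPM in cells over 60000 UMIs, so its direction turned in the shallowest cells. HYAL2 stood at 28.0 UPM and 70.3 UPM in those shallow cells, and CEMIP2 at 137 and 50.5 UPM. The shallow 4B4 cells held 50561 UPM of MALAT1 and the shallow control cells 14585 UPM. CEMIP was higher in 4B4 cells between 20000 and 60000 UMIs, at 55.7 UPM (52.6 to 58.9) against 21.3 UPM (20.3 to 22.2), and over 60000 UMIs, at 50.5 UPM (49.1 to 52.0) against 21.6 UPM (20.03 to 23.3). HAS3 had 9 UMIs in the shallow 4B4 cells, 13.3 UPM (6.07 to 25.2), and 8 UMIs in the shallow control cells, 0.977 UPM (0.422 to 1.93). In shallow cells the CEMIP intervals, 15.7 to 42.0 UPM and 14.7 to 20.6 UPM, overlapped.

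Pairs of members were set beside what their separate shares give. For each pair the number of thinned cells with both genes was divided by the number that the product of both shares gives, within a library. The 15 pairs without HAS3 ran from 0.756 to 1.31 in the 4B4 library and from 0.863 to 1.25 in the control library, and the counting interval of each pair spanned 1 in both. That interval is of the joint count alone, wide for common genes, and is no test of independence. Of these pairs 6 were above 1 in both libraries, 5 below 1 in both, and 4 lay on opposite sides. Some of these sides changed at other settings, such as HAS2 and CD44 in 4B4 cells (1.02, and 0.953 at 10000 UMIs). The synthase HAS2 and CEMIP were found together in 70 4B4 cells, 5.34%, where the product gives 6.31%, and in 128 control cells, 4.13%, where it gives 3.99%. CEMIP and CD44 were together in 24.8% of 4B4 cells and 12.9% of control cells, with ratios to the product of 1.03 in each. CEMIP and CEMIP2 were together in 17.2% of 4B4 cells and 7.68% of control cells, with ratios of 1.12 and 1.10. Across cells of fixed depth, Spearman correlations between counts of members were lowest for CEMIP2 and HYAL2 (-0.12 in 4B4 cells and -0.056 in control cells) and for HYAL2 and CD44 (-0.11 and -0.0997). These correlations are weak, and the part of sparse counts in them was not tested. The 6 pairs with HAS3 rest on at most 57 cells with a HAS3 UMI in a library. No thinned cell held all 7 members, and none of the 7 was found in 23 4B4 cells (1.75%) and 60 control cells (1.94%).

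**Figure D5:**
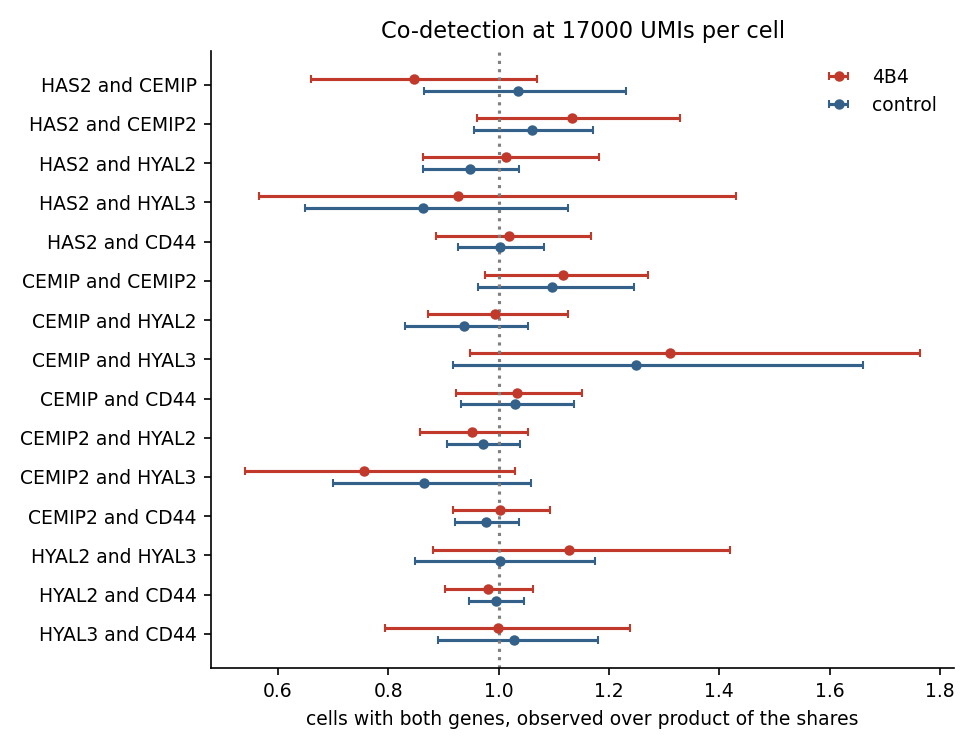
Cells with a UMI of both genes, divided by the number given by the product of both genes' shares, for 15 pairs in the 4B4 library (upper point of each pair) and the control library (lower point) at 17000 UMIs per cell, with exact Poisson intervals of the cells counted. Points run from 0.756 to 1.31 and each interval spans the dotted line at 1.

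For the members found in at least 20% of thinned cells of both libraries, the genes whose counts varied most alike across cells were listed by the lower of both within-library Spearman correlations, over 7510 candidate genes. These are correlations across 1311 4B4 cells and 3099 control cells that share a library and a fixed depth. The largest listed was 0.45, and the part of sparse counts in their size was not tested. HAS2 was most like SOX4 (0.25 in 4B4 cells and 0.25 in control cells), TSC22D1 (0.28 and 0.21) and MAP4K4 (0.25 and 0.21). CEMIP2 was most like MALAT1 (0.45 and 0.26), FNDC3B (0.40 and 0.26) and ZBTB20 (0.39 and 0.26). HYAL2 was most like SSR2 (0.21 and 0.20), CFL1 (0.23 and 0.19) and MARCKSL1 (0.20 and 0.18). CD44 was most like KCNMA1 (0.27 and 0.32), DCBLD2 (0.24 and 0.28) and VIM (0.23 and 0.27). CEMIP, at 15.5% of control cells, was under the 20% needed.

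Of 65 other genes of the pathway on 6 lists, 38 reached 5 UPM. Among these 38, 3 were called higher and 3 lower and 32 were not called, where 2.1% of all genes compared were higher and 5.82% lower. Their median log2 ratio was -0.0055, beside -0.0089 over all genes compared. Sugar precursor supply had 11 measured genes and no call, with a median of 0.089. Its largest ratios were those of GPI (0.48), which interconverts sugar phosphates, PGM1 (0.38), UAP1 (-0.36), which makes the activated N-acetylglucosamine, and GFPT1 (0.31), the entry enzyme of the hexosamine route. The 6 lysosomal glycosidases, which finish the breakdown of matrix sugars, had no call and a median of 0.16, with IDUA at 0.41, GLB1 at 0.27, HEXA at 0.20 and NAGLU at 0.12. None of the 5 genes on the list of other synthases and hyaluronidases, which also holds HAS2-AS1, reached 5 UPM. HYAL1 among them had 155 UMIs in 4B4 cells and 208 in control cells.

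Receptors other than CD44 included 4 measured genes, of which HMMR was lower and none was higher, beside 5.82% and 2.1% of all genes. HMMR, a hyaluronan-binding protein that also acts on the mitotic spindle, was at 11.5 UPM (10.9 to 12.2) in the 4B4 library and 35.6 UPM (34.6 to 36.7) in the control library. It was at 110.3 UPM and 128.5 UPM in cells called G2M and at 1.09 UPM and 1.79 UPM in G1 cells. Its log2 ratio of -1.63 over all cells was -0.72 within G1, where both levels are below the floor of 5 UPM, -0.00094 within S and -0.22 within G2M. HMMR was left out of the genes used to call phases. ICAM1 (-0.23), TLR4 (0.15) and LAYN (-0.14) were within 1.5-fold.

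Of the 16 hyaluronan-binding matrix proteins 3 were measured, of which 1 was called higher and 1 lower, beside 2.1% and 5.82% of all genes. VCAN, the large proteoglycan versican, was at 48.2 UPM (46.96 to 49.5) in 4B4 cells and 31.0 UPM (30.1 to 32.0) in control cells, a log2 ratio of 0.64, and 0.46 over G1 cells, short of 1.5-fold. PTX3, a pentraxin that helps to crosslink hyaluronan in some matrices, was at 12.1 UPM (11.4 to 12.7) and 37.2 UPM (36.2 to 38.3), a log2 ratio of -1.62, and -1.40 over G1 cells. BCAN (0.34) was the other measured gene. Among 14 measured partners of CD44, 2 were higher and 1 was lower, beside 2.1% and 5.82% of all genes, with a median of -0.10. SPP1, a CD44 ligand, had a log2 ratio of 1.63 and MMP14, which can shed CD44, 0.61, or 0.52 over G1 cells, short of 1.5-fold. ANK3, a cytoskeletal adaptor, was at 7.85 UPM in 4B4 cells and 12.1 UPM in control cells (-0.62). MET, a receptor kinase that can pair with CD44, had -0.53.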

How the data were processed

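Version 3 chemistry of the 10x Genomics Chromium 3′ kit was used for both libraries, per the labels' protocols. The deposited values are unnormalized counts of UMIs by gene and barcode, written by Cell Ranger 7.1.0, per the file headers. The submitters' processing notes name GRCh38 and Seurat 5.0.1, whose role is not given in the sources used here. Cells kept had 1000 or more detected genes and no more than 20% mitochondrial UMIs: 1385 of 1759 in the 4B4 library and 3402 of 3642 in the control library. Ratios are 4B4 over control with no pseudocount. Intervals at 95% are exact Poisson for sums and Clopper-Pearson for shares of cells, and for ratios they come from the Clopper-Pearson limits of the 4B4 share of the UMIs. They cover counting error only.

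Cells were thinned without replacement to 17000 UMIs, which left out 74 4B4 cells and 303 control cells. Phases were called in scanpy 1.11.5 on both libraries together from the lists of Seurat 5.3.0, leaving out HMMR. Clusters came from each library alone, on thinned cells, with 2000 variable genes less the members, 30 components, 15 neighbours and Leiden resolution 0.5, and leading genes had at least 50 UPM. Doublets were not removed and no caller was run. Positions came from GENCODE release 29, which matched 94.6% of gene IDs and may not be the authors' annotation.

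Genes named are the members, up to 4 measured genes per list, those furthest from a ratio of 1, and the 3 genes most like each eligible member; cluster leaders, MALAT1, overlapping genes, HAS1, HYAL1, HAS2-AS1 and TNFAIP6 were named after their values were seen. The members and lists were chosen with earlier results of these data known. Alternatives covered the cell filter, cell weight, depth, phase, scaling by TMM in edgeR 4.0.16, cells holding the most UMIs, the floor and the fold.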

Additional observations from a re-analysis of the deposited data

Results flagged for a closer look

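CEMIP2 moved in opposite directions between phases in the cultures: in S over G1 cells its log2 ratio was 0.24 in the 4B4 library and -0.47 in the control library. The difference between these ratios was not tested, and each rests on 1 library.

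Levels in barcodes left out by the cell filter also differed between the libraries. There were 374 such 4B4 barcodes with a median of 82.7% mitochondrial UMIs and 240 such control barcodes with a median of 92.4%. CEMIP was at 111 UPM in the 4B4 barcodes and 19.0 UPM in the control barcodes, CEMIP2 at 110.1 and 61.3 UPM, and CD44 at 218 and 97.6 UPM. HYAL2 ran the other way, at 11.9 UPM (8.36 to 16.4) in the 4B4 barcodes and 28.5 UPM (19.6 to 40.03) in the control barcodes. HAS2 was at 27.6 UPM (22.1 to 34.1) and 19.0 UPM (11.9 to 28.8), with overlapping intervals, and HAS3 and HYAL3 had at most 3 UMIs in either. CD44 was lower in 4B4 cells among kept cells, so its direction in the left-out barcodes is the other one. Mitochondrial UMIs count in these totals, and kept 4B4 and control cells had medians of 7.63% and 9.16%. Levels in left-out barcodes are therefore not directly comparable with those of kept cells or between the libraries. Without the filter 1363 4B4 and 3108 control barcodes reached 17000 UMIs, beside 1311 and 3099 kept ones.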

How the results depend on the processing

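CEMIP was called higher under all 10 other settings for ratios, with log2 ratios from 1.10 over G1 cells to 1.44 over thinned cells. HAS2 and CD44 stayed below 0, and CEMIP2 and HYAL3 above 0, under those settings, each short of 1.5-fold. HYAL2 ran from -0.062 to 0.11, on either side of 0. HAS3, below the floor, ran from -0.39 to 1.04 with each cell weighing the same. The CEMIP shares depend on depth: 55.3% of 4B4 cells and 23.9% of control cells without thinning, 21.1% and 11.4% at 10000 UMIs. Over all genes, 238 were called higher and 661 lower; the counts were 122 and 300 at a floor of 20 UPM and 43 and 250 at a ratio of 2. Over G1 cells 386 were lower. The fewer genes above a higher floor or ratio follow from those settings; for G1 cells the cause was not tested. Of 84 other co-detection values, 78 stayed within the main counting interval, and 21 lay on the other side of 1 from the main value, pairs with HAS3 included. Among pairs without HAS3, the interval lay off 1 for CEMIP2 and HYAL2 in 4B4 cells at 10000 UMIs (0.82, 0.705 to 0.949) and for CEMIP2 and HYAL3 in control G1 cells (0.743, 0.558 to 0.969). No paired analysis was possible because each group holds 1 library. Values of HAS3 and HYAL3 rest on few UMIs per 4B4 and control cell: 0.0874 and 0.0438 for HAS3, and 0.440 and 0.171 for HYAL3.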

Other observations

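TNFAIP6, whose secreted product transfers heavy chains onto hyaluronan, lay below 5 UPM in both libraries, at 4.55 UPM (4.17 to 4.96) in 4B4 cells and 2.59 UPM (2.31 to 2.88) in control cells. This gene was chosen after its values were seen.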
